A study of Homo sapiens with 12 samples.

Results

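The genes described here are 43 genes of DNA replication and of the G1/S transition, measured by RNA sequencing in SRA01/04, an immortalised human lens epithelial cell line. They were taken by symbol from a table of read counts for 60641 gene symbols. They cover the loading of the replicative helicase (10 genes), origin firing (8), the replicative polymerases (7), the sliding clamp and its loader (6), binding of single-stranded DNA and joining of the lagging strand (4), nucleotide supply (3), regulators of the G1/S transition (3) and chromatin assembly behind the fork (2). All 43 passed the filter on low counts, as did 17889 symbols in all, and no member had fewer than 152 counts in any library.

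Cells of this line were kept for 24 hours in 1 of 4 conditions, with 3 libraries each. NC cells were untreated, NC-A cells received asparagine, DHN cells received 1,2-DHN, and DHN-A cells received 1,2-DHN together with asparagine. All groups are the same line, which was immortalised with the SV40 large T antigen, a viral protein that binds RB family repressors of E2F and p53. The series links 1,2-DHN to opacity of the lens caused by naphthalene, and the comparisons ask how the compound alters expression and whether asparagine changes that. The sources used here do not give the doses, which compound was given first, or whether the 3 libraries of a group came from separate cultures. The p-values therefore cover the spread among these libraries alone, and that spread may be technical.

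A cell licenses its origins in G1, when the origin recognition complex (ORC) with CDC6 and CDT1 loads the MCM2-7 helicase onto DNA as an inactive ring. At the start of S phase the kinases DDK (CDC7 with DBF4) and CDK (with cyclin E) activate it with CDC45 and the GINS complex, after which DNA polymerase alpha-primase starts each strand and polymerases delta and epsilon extend it. Many of these genes are transcribed in a wave at the G1/S boundary under E2F factors. In the adult lens the only cells that divide are those of the epithelium, and a lens epithelial line in culture cycles.

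Libraries held between 12381071 (DHN 1) and 27526206 (DHN-A 1) counts. NC-A 1 stood apart from its group on the first principal component, at -65.1 against -12.5 and -10.4 for the other NC-A libraries, and the results that involve it are also given without it. Of 19 lens epithelium markers 9 passed the filter. PAX6, the master regulator of the eye, had a mean of 25.2 CPM (counts scaled to library size) in NC, whereas the lens crystallin CRYAA, the fibre proteins MIP and LIM2 and the transcription factor FOXE3 were each under 0.5 CPM. The lens-list genes CDH2 and GJA1 were at 236 and 135 CPM in NC. Of 10 fibroblast markers 8 passed the filter. COL1A1, a collagen, was at 1234 CPM in NC, COL6A3 at 331 and THY1 at 103 CPM, whereas DCN, LUM and PDGFRA were each under 0.5 CPM.

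Levels between genes were compared as CPM per kilobase of the deposited gene length, as the mean and SD of the 3 NC libraries. The deposited length equalled the exon union of GENCODE release 29 for 13 of the 43 members, and levels per kilobase depend on it. PCNA, the sliding clamp that holds polymerases on DNA, was the most abundant member at 169 ± 3.14. MCM3 (93.1 ± 0.701) and MCM7 (82.3 ± 2.09), which are subunits of the helicase ring, followed. The other ring subunits lay well below these 2, with MCM4 at 33.9 ± 0.533, MCM2 at 23.8 ± 2.58, MCM6 at 20.7 ± 0.759 and MCM5 at 16.7 ± 0.883, although the protein ring holds its 6 subunits in equal number. FEN1, the flap nuclease that trims lagging-strand fragments, was at 66.3 ± 1.305, and RRM2, the small subunit of ribonucleotide reductase, was at 55.6 ± 0.883. The RRM2 value rests on a deposited length of 9155 bases, where the exon union is 5323 bases, so RRM2 was not ranked against other members. The cyclin gene CCNE1 was at 55.1 ± 1.26.

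Of the genes that load the ring, CDT1 was at 25.5 ± 1.14, ORC6 at 23.3 ± 1.25, ORC1 at 12.7 ± 0.793 and CDC6 at 12.5 ± 0.256 CPM per kilobase in NC. CDT1 and ORC6 lay among the lower ring genes, and ORC1 and CDC6, which did not differ beyond their spread, lay below all 6 of them. The deposited length of CDT1, 2760 bases, is also shorter than its exon union of 3336 bases. Among polymerase genes POLD1, the catalytic subunit of polymerase delta, was at 23.8 ± 1.01, above POLA1, that of polymerase alpha (14.4 ± 0.402). POLE, the catalytic subunit of polymerase epsilon, was at 11.98 ± 0.282. The POLE value rests on a deposited length of 16790 bases, against 4934 bases for POLD1. Before division by length POLE was the higher, at a mean of 201 CPM in NC against 118 CPM for POLD1. POLE was therefore not ranked against POLD1. The lowest members were GINS2 (4.51 ± 0.661), PRIM1, the primase subunit (4.21 ± 0.162), GINS3 (4.17 ± 0.227) and POLA2, the second subunit of polymerase alpha (3.25 ± 0.107). The libraries of GINS2, PRIM1 and GINS3 overlapped, and POLA2 lay below them. PRIM1 has a deposited length of 2855 bases and an exon union of 2437 bases. Exons of other genes on the same strand cover 35.1% of POLA2 and 16.2% of PRIM1. How reads from such stretches were counted is not given, so the levels of these 2 genes may be set too low.

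Promoters of replication genes are known for E2F sites, and the members moved in both directions, so the sequences are shown before the values. RefSeq promoter windows of GRCh38.p14, which run from 250 bases before to 50 bases after a transcript start, were found by symbol for 37 of the 43 members. MCM4, MCM5, GINS4, CCNE2, RPA2 and POLD3 had none in the table. The E2F letters searched on both strands were TTTCCCGC, TTTCGCGC, TTTGCCGC and TTTGGCGC. A match on one strand can overlap a match on the other. At least 1 match was present in 19 of 37 members (51.4%), against 1090 of 27305 genes in the table (4.0%) and 738 of 11429 genes tested here (6.5%). Below are the 100 bases before the start of genes that rose with 1,2-DHN (CDT1, PCNA, GINS2), fell (CDC7, POLA2, TYMS) or passed the test in neither direction (E2F1, MCM6), read 5′ to 3′ on the gene's strand, with E2F matches in capitals.
CDT1, chr16:88803689-88803788, plus strand: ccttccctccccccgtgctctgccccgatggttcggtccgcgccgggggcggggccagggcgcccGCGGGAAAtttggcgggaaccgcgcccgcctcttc
PCNA, chr20:5126623-5126722, minus strand: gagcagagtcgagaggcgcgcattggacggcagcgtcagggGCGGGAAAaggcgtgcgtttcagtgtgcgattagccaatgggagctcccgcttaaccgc
GINS2, chr16:85688955-85689054, minus strand: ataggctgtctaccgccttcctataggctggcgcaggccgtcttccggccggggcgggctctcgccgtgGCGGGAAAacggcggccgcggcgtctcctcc
CDC7, chr1:91501012-91501111, plus strand: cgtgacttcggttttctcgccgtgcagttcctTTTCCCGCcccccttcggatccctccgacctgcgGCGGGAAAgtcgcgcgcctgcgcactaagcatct
POLA2, chr11:65261862-65261961, plus strand: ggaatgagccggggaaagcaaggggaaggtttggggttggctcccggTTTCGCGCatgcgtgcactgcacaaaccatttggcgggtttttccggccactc
TYMS, chr18:657553-657652, plus strand: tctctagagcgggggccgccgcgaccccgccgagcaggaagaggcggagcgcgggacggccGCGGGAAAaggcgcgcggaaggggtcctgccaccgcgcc
E2F1, chr20:33686386-33686485, minus strand: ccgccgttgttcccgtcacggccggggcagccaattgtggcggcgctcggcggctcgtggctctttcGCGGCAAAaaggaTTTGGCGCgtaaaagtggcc
MCM6, chr2:135876444-135876543, minus strand: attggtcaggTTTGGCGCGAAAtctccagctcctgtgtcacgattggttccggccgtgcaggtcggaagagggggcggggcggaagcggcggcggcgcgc

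The same letters, GCGGGAAA on the printed strand, stand in CDT1, PCNA and GINS2, which rose, and in CDC7 and TYMS, which fell. The calls of GINS2, TYMS and POLA2 were lost when certain single libraries were left out, as given below. CDC7 carries a second match, on the other strand, and MCM6 a pair of matches that share bases. Of the members with a window, 6 of 15 that rose with 1,2-DHN held a match (40.0%), as did 6 of 9 that fell (66.7%) and 7 of 13 that passed the test in neither direction (53.8%). CCAAT, a common promoter box with other letters than the E2F motif that was also searched on both strands, was present in 21 of 37 members (56.8%) and in 43.2% of the genes tested here. It was present in 73.3% of the members that rose, 44.4% of those that fell and 46.2% of those that passed the test in neither direction. A match is a description of the letters and not a binding site, and other transcripts of these genes can start elsewhere.

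**Figure D1:**
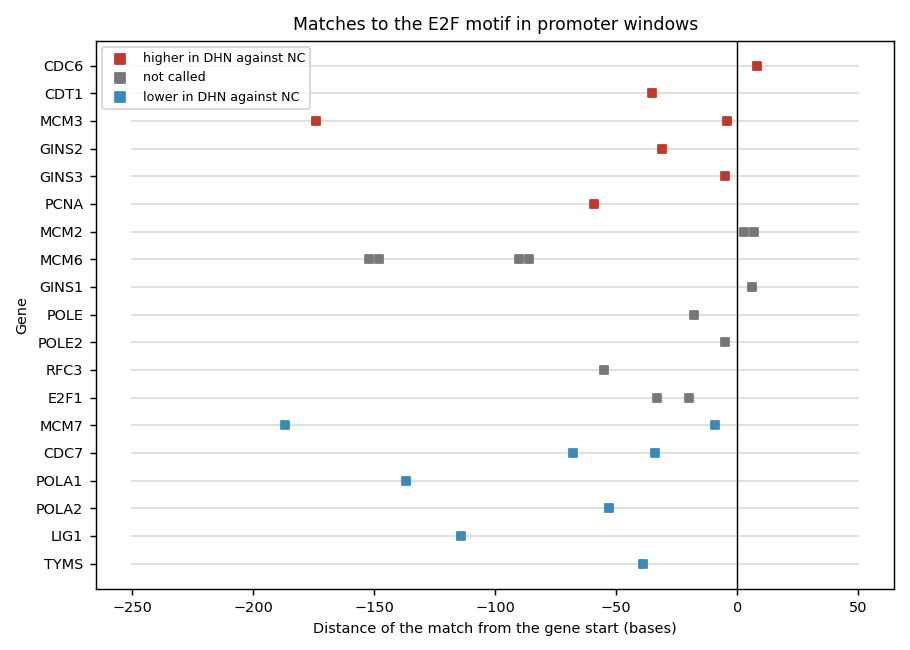
Distance in bases of each E2F match from the gene start (squares) for the 19 members with a match, over the RefSeq window (grey lines), coloured by the call in DHN against NC. Matches occur in 6 members that rose, 6 that fell and 7 that passed the test in neither direction, most of them before the start.

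With 1,2-DHN alone the helicase loaders CDC6, CDT1, ORC1 and ORC6 and the cyclins CCNE1 and CCNE2 rose, while the polymerase genes POLD1, POLA1 and POLA2 and the nucleotide supply genes RRM2 and TYMS fell. Against these directions the polymerase gene PRIM1 rose, and the licensing gene MCM7 and the origin firing gene CDC7 fell. The calls of PRIM1, POLA2 and TYMS were lost without certain single libraries. In DHN against NC 18 of the 43 members rose and 9 fell, where 19.7% of all 17889 tested genes rose and 19.0% fell, 38.7% in all (edgeR's quasi-likelihood test, Benjamini-Hochberg adjusted p under 0.05, as for all calls below). The median log2 change over the members was 0.079, against 0.0073 over all genes. Changes were small: the largest rise was 1.68-fold (CDC6) and the largest fall 1.30-fold (POLD1). With libraries scaled by total counts, without the trimmed mean of M values (TMM) factors, 21 rose and 5 fell. MCM7, RPA1, RRM2 and TYMS then no longer passed the test.

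By role, 6 of 10 licensing genes rose and 1 fell, 5 of 8 origin firing genes rose and 1 fell, and 2 of 6 clamp and loader genes rose. Of the 7 polymerase genes 1 rose and 3 fell, and of the 3 nucleotide supply genes none rose and 2 fell. Over all genes 19.7% rose and 19.0% fell. DESeq2 did not call DBF4, GINS2 or PRIM1, and so called 3 of 8 origin firing genes and 0 of 7 polymerase genes higher. Over the 43 members DESeq2 called 15 higher and 8 lower, and limma-voom 17 and 8. The difference between the mean log2 CPM of the licensing genes and that of the polymerase genes was 1.26, 1.203 and 1.26 in NC libraries and 1.58, 1.48 and 1.59 in DHN libraries. In NC-A it was 1.13, 1.16 and 1.17, and in DHN-A 1.17, 1.17 and 1.19. The DHN libraries lay above all others. The roles were compared in this way without a test, since the members were chosen with results of these data known.

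**Figure D2:**
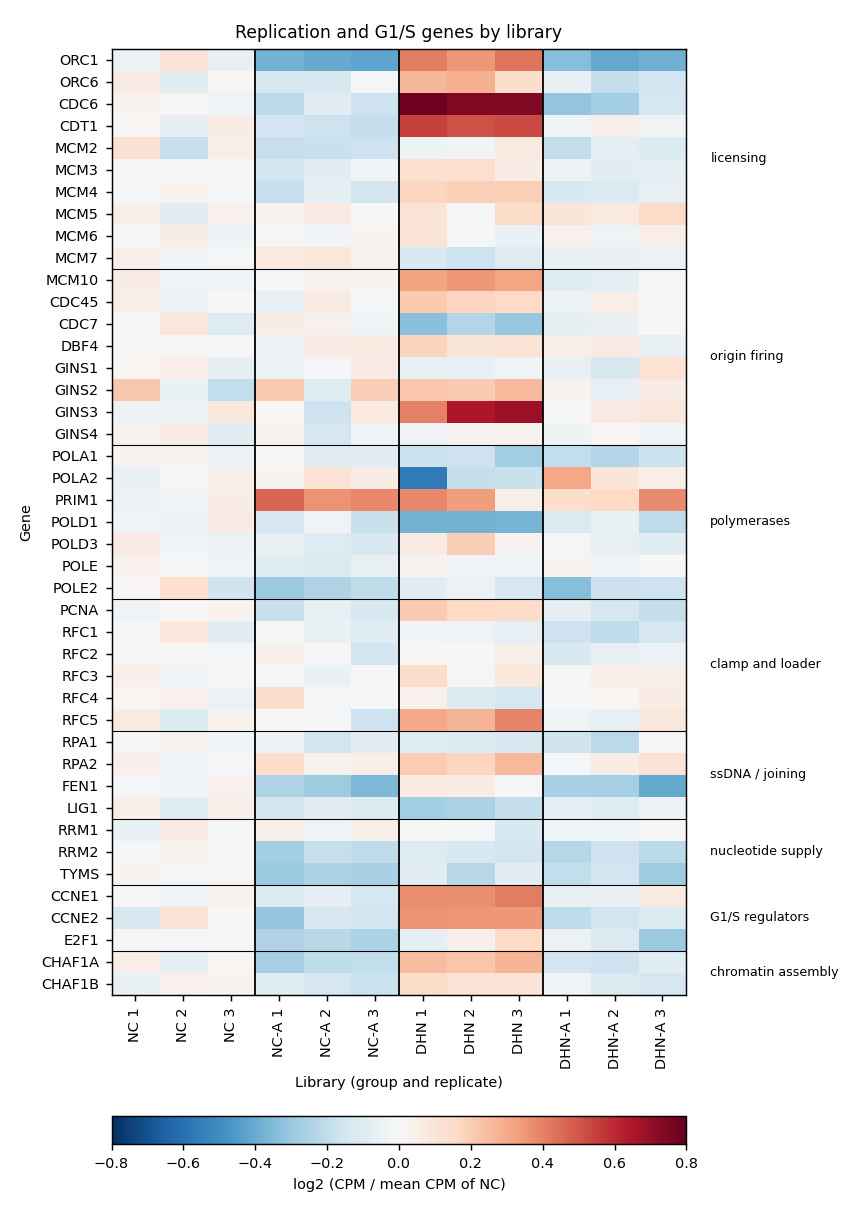
Members (rows, by role) in the 12 libraries (columns), as log2 CPM relative to the mean of the 3 NC libraries. CDC6, CDT1, ORC1 and GINS3 are high in the 3 DHN libraries and POLD1 and CDC7 are low there, while in both the NC-A and the DHN-A libraries ORC1 and FEN1 are below NC.

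CDC6 (chr17:40287633-40304657, GENCODE release 29 on GRCh38), the ATPase that brings the ring to ORC, was at 67.4, 66.6 and 64.8 CPM in NC and 114, 111 and 111 CPM in DHN (log2 change 0.75 ± 0.050 SE, adjusted p = 2.4e-17). The groups did not overlap, and the spread within each was a few CPM. CDT1 (chr16:88803213-88809258), which escorts the ring to the origin and is destroyed once S phase starts, was at 70.8, 67.01 and 73.3 CPM in NC and 103, 100.2 and 101 CPM in DHN (log2 change 0.53 ± 0.047 SE, adjusted p = 6.58e-13). ORC1 (chr1:52372829-52404459), the ORC subunit whose protein cycles most in human cells, was at 38.3, 42.5 and 38.1 CPM in NC and 52.5, 50.5 and 53.3 CPM in DHN (log2 change 0.39 ± 0.060 SE, adjusted p = 5.48e-07). The DHN libraries of CDT1 and ORC1 were all above those of NC. ORC6, the smallest ORC subunit, rose by 0.23 ± 0.049 (adjusted p = 0.00013) on the log2 scale.

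Of the 6 ring genes 2 rose and 1 fell. MCM4 rose by 0.18 ± 0.038 (adjusted p = 9.09e-05) and MCM3 by 0.11 ± 0.037 (adjusted p = 0.0163), whereas MCM7 fell, with a log2 change of -0.13 ± 0.036 (adjusted p = 0.00323). MCM7 was at 372, 355 and 357 CPM in NC and 332, 322 and 336 CPM in DHN, with no overlap. MCM2 was at 122, 98.4 and 116 CPM in NC and 109, 110.4 and 118 CPM in DHN, and MCM5 at 126, 114 and 124 CPM in NC and 131, 121 and 135 CPM in DHN. MCM2, MCM5 and MCM6 overlapped between the groups and did not pass the test, with log2 changes of 0.0085 (95% interval -0.10 to 0.12), 0.082 (-0.0096 to 0.17) and 0.010 (-0.087 to 0.11). The mean log2 CPM of ORC1, ORC6, CDC6 and CDT1 minus that of the 6 ring genes, a contrast chosen after the values were seen, was -1.47, -1.43 and -1.46 in NC and -1.01, -1.01 and -1.05 in DHN. The MCM3 call was lost without DHN 1 or DHN 2 (log2 change 0.099 to 0.10, adjusted p = 0.057 to 0.0744).

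**Figure D3:**
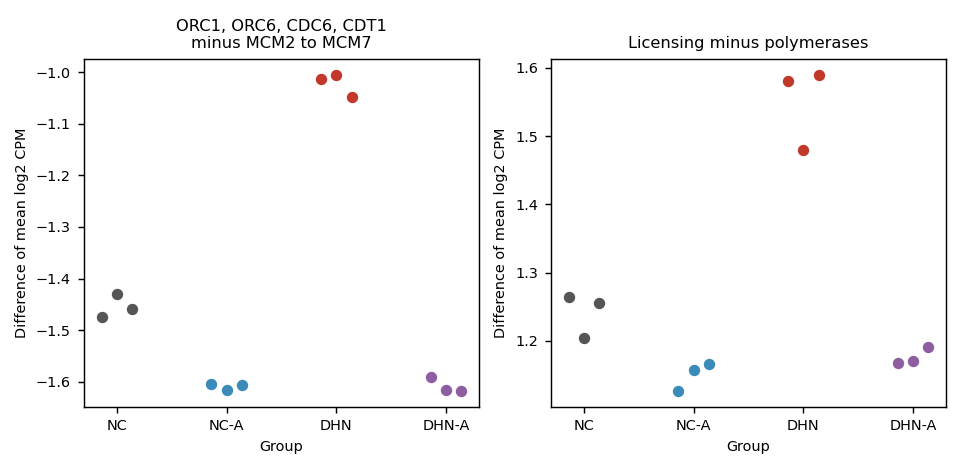
Differences of mean log2 CPM in each library: licensing minus polymerase genes, and the loaders ORC1, ORC6, CDC6 and CDT1 minus the ring genes MCM2 to MCM7. In both panels the 3 DHN libraries lie above the 9 libraries of the other groups.

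Of the origin firing genes, GINS3 (chr16:58295080-58406144), a subunit of the GINS complex that completes the active helicase, was at 20.6, 20.6 and 22.6 CPM in NC and 28.1, 33.3 and 34.3 CPM in DHN (log2 change 0.59 ± 0.079 SE, adjusted p = 2.3e-08). MCM10, needed for the ring to start unwinding, was at 96.9, 91.05 and 91.3 CPM in NC and 116, 118 and 116 CPM in DHN (log2 change 0.33 ± 0.045 SE, adjusted p = 3.67e-08). CDC45, the helicase cofactor, was at 51.5, 48.4 and 49.8 CPM in NC and 57.8, 56.1 and 55.8 CPM in DHN (log2 change 0.18 ± 0.055 SE, adjusted p = 0.00718). All DHN libraries of these 3 genes lay above all NC libraries. The 2 subunits of the DDK kinase moved apart: CDC7, its catalytic subunit, was at 47.04, 49.7 and 43.4 CPM in NC and 37.1, 39.7 and 37.9 CPM in DHN (log2 change -0.28 ± 0.061 SE, adjusted p = 0.00015), and DBF4, its activator, rose by 0.13 ± 0.049 (adjusted p = 0.037). GINS2 rose by 0.24 ± 0.099 (adjusted p = 0.0462), while GINS1 and GINS4 did not pass the test (log2 changes -0.053 and 0.016). The DBF4 call was lost without NC 1, NC 2, NC 3 or DHN 1 (log2 change 0.11 to 0.13, adjusted p = 0.0557 to 0.129), and the GINS2 call without NC 2, NC 3, DHN 1, DHN 2, DHN 3 or DHN-A 1 (log2 change 0.15 to 0.26, adjusted p = 0.0545 to 0.309).

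Among the polymerases POLD1 (chr19:50384204-50418016), the catalytic subunit of polymerase delta, had the largest fall. It was at 115, 114 and 123 CPM in NC and 90.3, 90.6 and 90.8 CPM in DHN (log2 change -0.38 ± 0.047 SE, adjusted p = 5.81e-09). POLA1, the catalytic subunit of polymerase alpha, was at 96.9, 96.7 and 92.2 CPM in NC and 84.6, 85.1 and 78.5 CPM in DHN (log2 change -0.20 ± 0.047 SE, adjusted p = 0.000403). Neither gene overlapped between the groups. POLA2 was at 17.5, 18.2 and 18.6 CPM in NC and 12.2, 15.9 and 15.99 CPM in DHN (log2 change -0.28 ± 0.093 SE, adjusted p = 0.0133), with DHN 1 the lowest library. PRIM1, whose product makes the RNA primer, rose from 11.7, 11.8 and 12.5 CPM in NC to 15.7, 15.2 and 12.4 CPM in DHN (log2 change 0.25 ± 0.10 SE, adjusted p = 0.0472), and DHN 3 lay within the NC range. The POLA2 call was lost without NC 3 or DHN 1 (log2 change -0.26 to -0.18, adjusted p = 0.0507 to 0.143). The PRIM1 call was lost without NC 1, NC 2, NC 3, NC-A 1, NC-A 2, NC-A 3, DHN 1, DHN 2 or DHN-A 1 (log2 change 0.20 to 0.28, adjusted p = 0.0502 to 0.184). POLE, the leading-strand polymerase, its partner POLE2 and the polymerase delta subunit POLD3 did not pass the test, with log2 changes of -0.012, -0.086 and 0.10. POLE2 was at 31.8, 34.6 and 28.3 CPM in NC and 29.7, 30.6 and 28.8 CPM in DHN, which overlap.

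PCNA was at 233, 238 and 242 CPM in NC and 274, 265 and 262 CPM in DHN (log2 change 0.17 ± 0.039 SE, adjusted p = 0.000444), without overlap. Of the 5 subunits of the clamp loader RFC only RFC5 passed the test (log2 change 0.33 ± 0.072 SE, adjusted p = 0.000234). RFC1 to RFC4 had log2 changes of -0.040, 0.021, 0.079 and -0.077. Exons of WSB2 and AC131159.2 on the other strand together cover 10.6% of RFC5, and WSB2 had 181% of its counts. The sources used here do not give the strand setting of the counting, so reads from the strands of that stretch cannot be told apart.

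The single-strand binding and joining genes moved in both directions. RPA2, a subunit of the single-strand binding protein RPA, rose by 0.21 ± 0.047 (adjusted p = 0.000201), and RPA1, its largest subunit, fell (log2 change -0.11 ± 0.045 SE, adjusted p = 0.0382). LIG1, the ligase that seals lagging-strand nicks, was at 192, 173 and 191 CPM in NC and 153, 156 and 162 CPM in DHN (log2 change -0.24 ± 0.042 SE, adjusted p = 8.64e-06). FEN1 was at 145, 144 and 149 CPM in NC and 152, 152 and 144 CPM in DHN. The LIG1 groups did not overlap, whereas the FEN1 groups did and FEN1 did not pass the test (log2 change 0.031 ± 0.044 SE, adjusted p = 0.63). The RPA1 call was lost without NC 1, NC 2, DHN 1, DHN 2 or DHN 3 (log2 change -0.12 to -0.10, adjusted p = 0.0664 to 0.118).

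Of the 3 nucleotide supply genes 2 fell. RRM2, the limiting subunit of ribonucleotide reductase in S phase, was at 505, 518 and 503 CPM in NC and 474, 469 and 458 CPM in DHN (log2 change -0.12 ± 0.035 SE, adjusted p = 0.0039). TYMS, thymidylate synthase, was at 93.03, 90.7 and 91.8 CPM in NC and 86.7, 78.9 and 86.2 CPM in DHN (log2 change -0.13 ± 0.048 SE, adjusted p = 0.0248). All DHN libraries of these genes were below NC. RRM1, the large subunit of the reductase, was at 159, 172 and 163 CPM in NC and 165, 164 and 152 CPM in DHN and did not pass the test (log2 change -0.043 ± 0.042 SE, adjusted p = 0.468). The TYMS call was lost without NC 1, NC 3 or DHN 2 (log2 change -0.13 to -0.083, adjusted p = 0.0529 to 0.256). With total counts in place of TMM factors the RRM2 and MCM7 calls were also lost.

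Both E-type cyclins, which drive CDK2 at the entry to S phase, rose. CCNE1 was at 136, 132 and 138 CPM in NC and 175, 175 and 179.7 CPM in DHN (log2 change 0.38 ± 0.042 SE, adjusted p = 1.81e-10). CCNE2 was at 33.2, 39.3 and 36.4 CPM in NC and 46.6, 46.5 and 46.2 CPM in DHN (log2 change 0.35 ± 0.065 SE, adjusted p = 1.77e-05). Neither cyclin overlapped between the groups. Exons of INTS8 and AC087752.4 on the other strand together cover 37.1% of CCNE2, and INTS8 had 131% of its counts. E2F1, the transcription factor of the wave, was at 46.1, 45.5 and 45.6 CPM in NC and 43.4, 47.00 and 50.98 CPM in DHN, which overlap (log2 change 0.052 ± 0.063 SE, adjusted p = 0.57). Of the chromatin assembly factor CAF-1, which deposits histones behind the fork, CHAF1A was at 209, 191 and 203 CPM in NC and 239, 234 and 242 CPM in DHN (log2 change 0.25 ± 0.040 SE, adjusted p = 1.62e-06). CHAF1B, its partner, had a log2 change of 0.12 ± 0.052 (adjusted p = 0.0742) and did not pass the test.

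**Figure D4:**
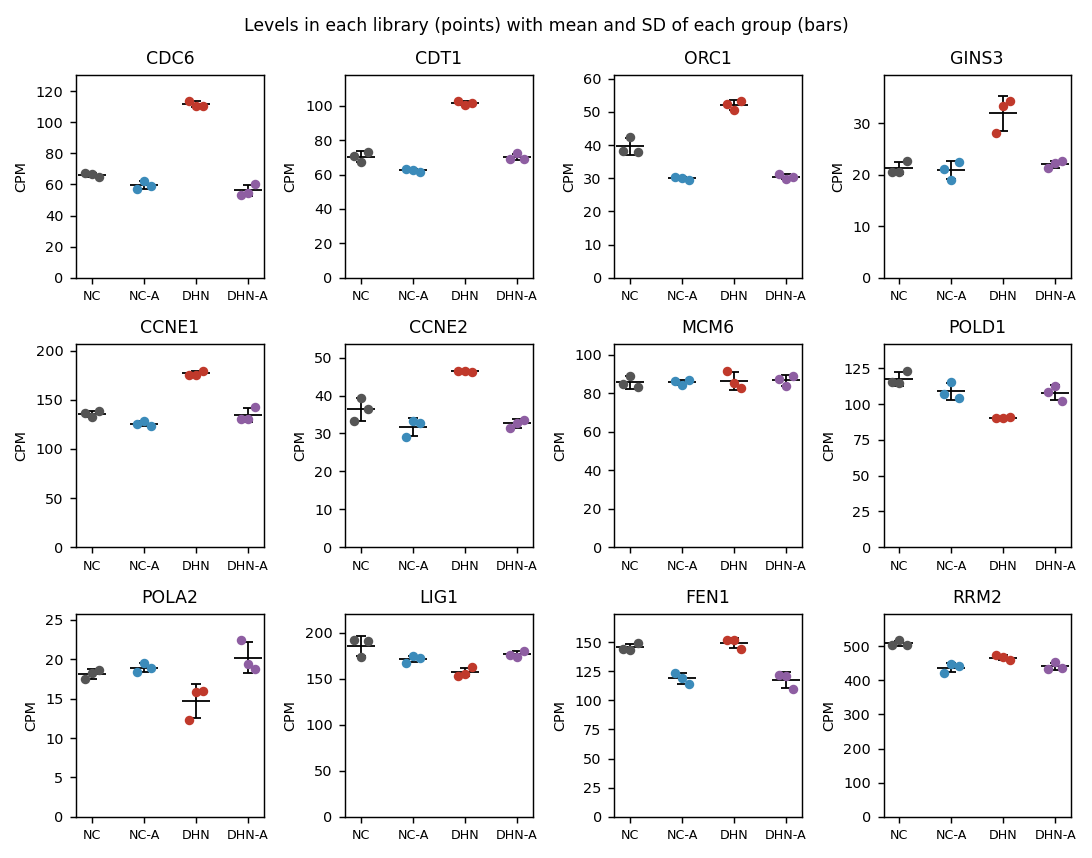
CPM of 12 members in each library (points), with the mean and SD of each group of 3 libraries (bars), on axes that start at 0. CDC6, CDT1, ORC1, GINS3 and both cyclins are highest in the DHN libraries, POLD1, POLA2 and LIG1 are lowest there, and FEN1 and RRM2 are lower in both groups with asparagine.

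All 11 listed mitosis genes fell in DHN against NC (median log2 change -0.53), where 19.0% of all genes fell, and their summed level was 2556 to 2645 CPM in NC and 1805 to 1875 CPM in DHN. It was 2483 to 2546 CPM in NC-A and 2284 to 2350 CPM in DHN-A. The summed level of 10 fibroblast markers was 1705 to 1810 CPM in NC and 961 to 1017 CPM in DHN. Most of that sum was COL1A1 (mean 1234 CPM in NC, 692 in DHN) and COL6A3 (331 and 140). The summed level of 19 lens epithelium markers was lower in DHN as well, at 408 to 428 CPM in NC and 333 to 353 CPM in DHN. The part of these shifts in the members' changes was not tested. In bulk RNA a different share of cells in a phase of the cycle and a different amount of RNA per cell cannot be told apart.

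**Figure D5:**
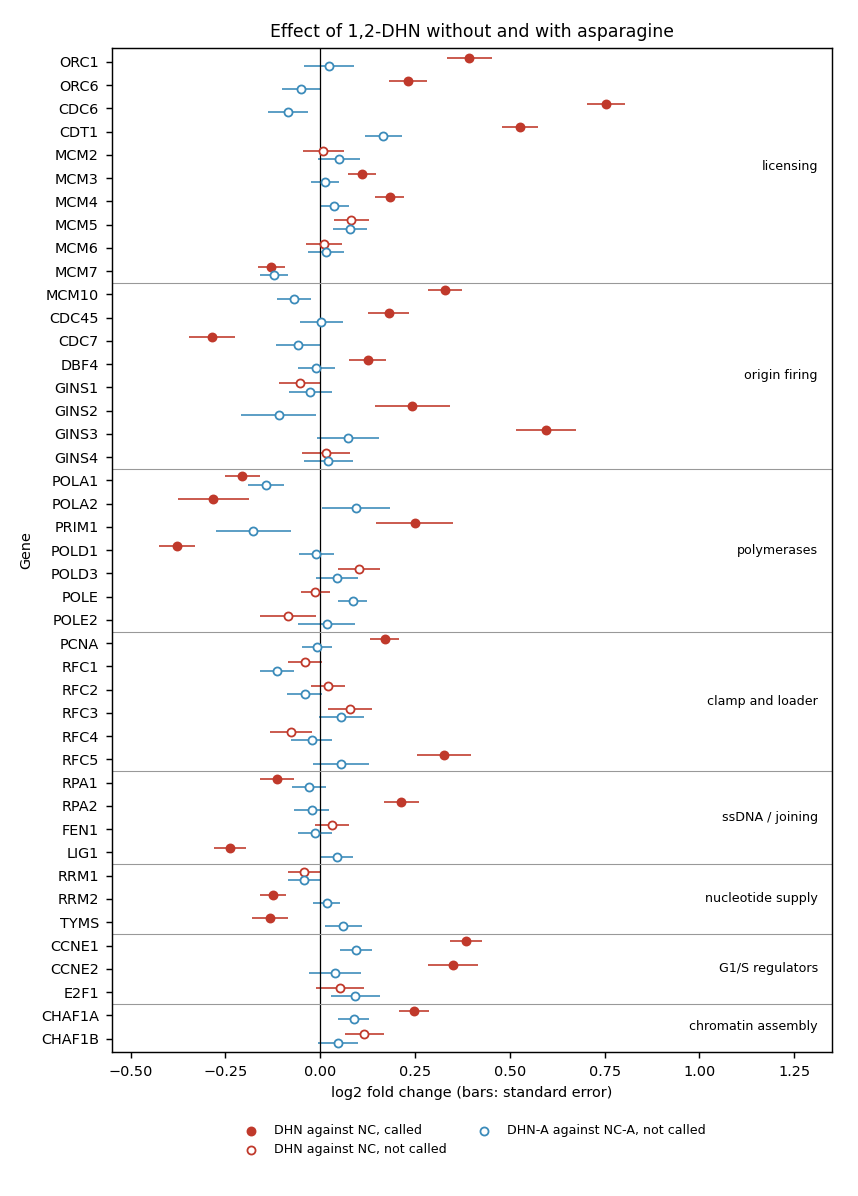
Log2 change of each member with 1,2-DHN, without asparagine (DHN against NC, red) and with it (DHN-A against NC-A, blue), by role, where bars are standard errors and filled points passed the test. Without asparagine the changes run from the fall of POLD1 to the rise of CDC6, and with asparagine all changes are within 0.18 of 0 and no point is filled.

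With asparagine present in both groups, no member's change with 1,2-DHN passed edgeR's test, as few genes of any kind did. In DHN-A against NC-A edgeR called 0 of the 43 members in either direction, where it called 2.10% of all genes (0.805% higher and 1.29% lower). A count of 0 among 43 is near that share. At an unadjusted p under 0.05 there were 7 of 43 members (CDT1, MCM7, POLA1, POLE, RFC1, CCNE1 and CHAF1A), also near the share of all genes (13.1%). DESeq2 called 2 members, CDT1 (higher) and MCM7 (lower), and limma-voom none. The largest change of any member was 0.18 on the log2 scale. The median over the members was 0.015, against 0.0030 over all genes. Without NC-A 1 edgeR also called 0 members, with CDT1 at 0.18 (adjusted p = 0.117) and MCM7 at -0.11 (adjusted p = 0.16).

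CDC6 was at 57.1, 62.1 and 58.99 CPM in NC-A and 53.3, 54.8 and 60.2 CPM in DHN-A, which overlap (log2 change -0.084, 95% interval -0.19 to 0.022). ORC1 was at 30.5, 30.01 and 29.6 CPM in NC-A and 31.3, 29.8 and 30.3 CPM in DHN-A (log2 change 0.023, 95% interval -0.11 to 0.15). These intervals end below the rises of CDC6 and ORC1 in DHN against NC. CDT1 was at 63.3, 62.6 and 61.6 CPM in NC-A and 69.1, 72.3 and 68.99 CPM in DHN-A, with all DHN-A libraries higher (log2 change 0.17, 95% interval 0.067 to 0.27, adjusted p = 0.063). MCM7 was at 381, 383 and 369 CPM in NC-A and 346, 346 and 350.1 CPM in DHN-A, all lower (log2 change -0.12 ± 0.036 SE, adjusted p = 0.0611). The log2 change of MCM7 without asparagine was -0.13. The CDT1 call appeared without NC 2 (log2 change 0.17, adjusted p = 0.0434) and the MCM7 call without DHN 3 (log2 change -0.12, adjusted p = 0.0451). CDT1 was also called by edgeR with total counts (adjusted p = 0.0281) and without the filter on low counts (adjusted p = 0.0338). Both were called by DESeq2 (adjusted p = 0.0311 for CDT1, 0.00536 for MCM7). An edgeR fit of only these 2 groups called both too (adjusted p = 0.0496 and 0.0431). POLD1 was at 107, 115 and 104 CPM in NC-A and 109, 113 and 102 CPM in DHN-A, and RRM2 at 422, 447 and 441 CPM in NC-A and 435, 454 and 437 CPM in DHN-A. Both genes overlap between the groups.

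Among the other members, MCM2 was at 98.7, 99.05 and 99.8 CPM in NC-A and 98.2, 106 and 104 CPM in DHN-A, and MCM5 at 124, 127 and 122 CPM in NC-A and 130.2, 128 and 135 CPM in DHN-A. PCNA was at 209.6, 227 and 217 CPM in NC-A and 226, 215 and 208 CPM in DHN-A. CDC45 was at 47.6, 52.5 and 49.7 CPM in NC-A and 48.3, 51.7 and 50.1 CPM in DHN-A, and MCM10 at 92.3, 94.98 and 94.4 CPM in NC-A and 87.1, 88.1 and 93.4 CPM in DHN-A. All DHN-A libraries of MCM5 lay above those of NC-A, while MCM2, PCNA, CDC45 and MCM10 overlapped. POLA1 was at 95.8, 89.9 and 89.4 CPM in NC-A and 83.2, 81.1 and 84.6 CPM in DHN-A, all lower, and POLE2 at 25.9, 26.7 and 27.4 CPM in NC-A and 24.9, 28.1 and 28.1 CPM in DHN-A. CCNE1 was at 126, 128 and 123 CPM in NC-A and CCNE2 at 29.1, 33.3 and 32.7 CPM.

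The difference between the responses was tested as an interaction, that is, the 1,2-DHN effect measured with asparagine less the effect measured without it. It passed the test for 20 members, of which 14 had a lower and 6 a higher value with asparagine, where 25.7% of all genes passed (12.5% lower, 13.2% higher). With total counts in place of TMM factors it passed for 15 lower and 3 higher members. The largest was CDC6 (-0.84 ± 0.072 SE, adjusted p = 7.18e-13), followed by GINS3 (-0.52 ± 0.11 SE, adjusted p = 0.000392), PRIM1 (-0.43 ± 0.14 SE, adjusted p = 0.0206), MCM10 (-0.40 ± 0.064 SE, adjusted p = 2.76e-06), ORC1 (-0.37 ± 0.089 SE, adjusted p = 0.00119) and CDT1 (-0.36 ± 0.068 SE, adjusted p = 5.35e-05). On the higher side were POLA2 (0.38 ± 0.13 SE, adjusted p = 0.0258), POLD1 (0.37 ± 0.067 SE, adjusted p = 2.56e-05), LIG1 (0.28 ± 0.059 SE, adjusted p = 0.000253), CDC7, TYMS and RRM2, each of which fell with 1,2-DHN alone. The interaction includes the DHN against NC effect with its sign turned, so opposite signs in the 2 are not independent. Mean RRM2 was 509 CPM in NC, 467 in DHN, 437 in NC-A and 442 in DHN-A. Mean TYMS was 91.8, 83.9, 76.1 and 79.3 CPM in the same order. For these 2 genes the DHN-A mean thus lay below the DHN mean. POLA1, RPA1 and MCM7, the other members that fell with 1,2-DHN, did not pass the interaction test (log2 values 0.061, 0.083 and 0.0073). Without NC-A 1 the interaction passed for 16 members, and PRIM1, RFC5, RRM2 and TYMS were no longer called.

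Asparagine alone lowered a part of the set. In NC-A against NC 13 members fell and 1 rose, where 10.9% of all genes fell and 9.32% rose (20.2% in all), and the median over the members was -0.080 against 0.0031 over all genes. With total counts in place of TMM factors 9 members fell and 2 rose, with a median of -0.049. ORC1 had the largest fall, from 38.3, 42.5 and 38.1 CPM in NC to 30.5, 30.01 and 29.6 CPM in NC-A (log2 change -0.40 ± 0.065 SE, adjusted p = 7.6e-06). FEN1 was at 145, 144 and 149 CPM in NC and 123, 119.6 and 114 CPM in NC-A (log2 change -0.30 ± 0.045 SE, adjusted p = 2.78e-06). TYMS was at 74.7, 76.9 and 76.6 CPM in NC-A (log2 change -0.27 ± 0.049 SE, adjusted p = 4.71e-05). In these genes every NC-A library lay below every NC library.

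The other nucleotide supply gene that fell was RRM2, at 422, 447 and 441 CPM in NC-A (log2 change -0.22 ± 0.036 SE, adjusted p = 6.34e-06), and RRM1, at 170.1, 162 and 170.4 CPM, did not pass the test. E2F1 was at 38.7, 39.2 and 38.4 CPM (log2 change -0.24 ± 0.066 SE, adjusted p = 0.00705), and CHAF1A at 167, 174 and 176 CPM (log2 change -0.22 ± 0.041 SE, adjusted p = 7.36e-05). All NC-A libraries of E2F1 and CHAF1A were below those of NC. The other falls were CDC6 (-0.16), CDT1 (-0.17), MCM2 (-0.17), MCM4 (-0.14), POLE2 (-0.24), PCNA (-0.12) and CCNE2 (-0.20) on the log2 scale. PRIM1 was the member that rose, to 16.6, 15.4 and 15.7 CPM from 11.7, 11.8 and 12.5 CPM in NC (log2 change 0.40 ± 0.10 SE, adjusted p = 0.00346). Of the 8 origin firing genes edgeR called 0, with log2 changes from -0.041 to 0.13 and 0 at an unadjusted p under 0.05, and DESeq2 and limma-voom also called 0. Without NC-A 1, the library that stood apart, 7 members fell (ORC1, CDT1, FEN1, RRM2, TYMS, E2F1 and CHAF1A) and PRIM1 rose. Calls lost when 1 library was left out were those of CDC6 without NC 1, NC 2, NC-A 1 or NC-A 3 (log2 change -0.15 to -0.13, adjusted p = 0.0615 to 0.137), CDT1 without NC 3 or NC-A 3 (log2 change -0.16 to -0.14, adjusted p = 0.0512 to 0.0806), MCM2 without NC 1, NC 3, NC-A 1, NC-A 2 or NC-A 3 (log2 change -0.18 to -0.12, adjusted p = 0.0597 to 0.169), MCM4 without NC-A 1 (log2 change -0.11, adjusted p = 0.0595), PCNA without NC 3, NC-A 1 or NC-A 3 (log2 change -0.12 to -0.097, adjusted p = 0.0608 to 0.128), POLE2 without NC 2, NC-A 1 or NC-A 2 (log2 change -0.24 to -0.17, adjusted p = 0.0522 to 0.162) and CCNE2 without NC 2, NC 3 or NC-A 1 (log2 change -0.20 to -0.14, adjusted p = 0.076 to 0.212).

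In cells with 1,2-DHN, adding asparagine lowered the helicase loaders, the E-type cyclins and both CAF-1 genes and raised POLA2, POLD1, CDC7 and LIG1. In DHN-A against DHN 20 members fell and 4 rose, where 20.8% of all genes fell and 20.9% rose (41.7% in all), with a median of -0.13 against 0.0091 over all genes. The comparison shares the DHN libraries with that of DHN against NC, so opposite signs in the 2 are not independent. CDC6 went from 114, 111 and 111 CPM in DHN to 53.3, 54.8 and 60.2 CPM in DHN-A, a 1.99-fold fall (log2 change -0.99 ± 0.049 SE, adjusted p = 1.35e-21). ORC1 was at 31.3, 29.8 and 30.3 CPM in DHN-A (log2 change -0.77 ± 0.060 SE, adjusted p = 1.02e-14), and GINS3 at 21.2, 22.3 and 22.6 CPM (log2 change -0.55 ± 0.077 SE, adjusted p = 8.13e-08). No DHN-A library of these 3 genes reached the level of a DHN library.

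The remaining licensing falls were CDT1 (-0.53), ORC6 (-0.36), MCM4 (-0.28) and MCM3 (-0.18), so 6 of 10 licensing genes fell. MCM10 (-0.38) and CDC45 (-0.18) fell among the firing genes and PCNA (-0.30), RFC5 (-0.33) and RFC1 (-0.13) among the clamp and loader genes. CCNE2 was at 31.5, 32.8 and 33.6 CPM in DHN-A (log2 change -0.51 ± 0.064 SE, adjusted p = 6.98e-09), and CCNE1 at 131, 129.98 and 142 CPM (log2 change -0.40 ± 0.041 SE, adjusted p = 5.4e-11). Both cyclins lay below every DHN library. E2F1 was at 44.4, 42.3 and 37.3 CPM in DHN-A, FEN1 at 122, 121 and 109.7 CPM and CHAF1A at 182, 179 and 189 CPM. E2F1 (-0.20), CHAF1A (-0.38), CHAF1B (-0.21), FEN1 (-0.34), RPA2 (-0.16) and POLD3 (-0.15) also fell. Of the 20, FEN1, E2F1, CHAF1B, RFC1 and POLD3 had not passed the test in DHN against NC.

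The 4 members that rose when asparagine was added were all members that had fallen with 1,2-DHN. POLA2 was at 22.4, 19.4 and 18.8 CPM in DHN-A (log2 change 0.44 ± 0.090 SE, adjusted p = 8.53e-05), POLD1 at 109, 113 and 102 CPM (log2 change 0.25 ± 0.047 SE, adjusted p = 1.67e-05), CDC7 at 44.3, 45.1 and 46.9 CPM (log2 change 0.24 ± 0.060 SE, adjusted p = 0.000748) and LIG1 at 176, 173 and 180.3 CPM (log2 change 0.17 ± 0.042 SE, adjusted p = 0.000948). Every DHN-A library of these genes was above every DHN library. Of the 3 nucleotide supply genes edgeR called 0, with 1 at an unadjusted p under 0.05, and DESeq2 and limma-voom each called 1 (RRM2, lower). RRM2 was at 435, 454 and 437 CPM in DHN-A (log2 change -0.079 ± 0.035 SE, adjusted p = 0.0662), RRM1 at 161, 161 and 165 CPM (log2 change 0.022 ± 0.042 SE, adjusted p = 0.702) and TYMS at 79.9, 82.5 and 75.5 CPM (log2 change -0.078 ± 0.048 SE, adjusted p = 0.193). The E2F1 call was lost without DHN 3 or DHN-A 3 (log2 change -0.14, adjusted p = 0.0975 to 0.105), that of RFC1 without DHN-A 1 or DHN-A 2 (log2 change -0.13 to -0.11, adjusted p = 0.0513 to 0.0692), that of POLD3 without DHN 2 (log2 change -0.10, adjusted p = 0.196), that of CDC45 without DHN-A 1 (log2 change -0.15, adjusted p = 0.056) and that of RPA2 without DHN-A 1 (log2 change -0.12, adjusted p = 0.0608).

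Cells with both compounds lay below untreated cells at a part of the set. In DHN-A against NC 13 members fell and none rose, where 11.2% of all genes fell and 9.83% rose (21.1% in all). The median over the members was -0.055, against 0.0043 over all genes. The largest falls were ORC1 (-0.38 ± 0.061 SE, adjusted p = 6.05e-06), FEN1 (-0.31 ± 0.044 SE, adjusted p = 4.65e-07) and CDC6 (-0.24 ± 0.051 SE, adjusted p = 0.000368). ORC1, FEN1, RRM2, TYMS, CDC6, POLE2, PCNA and CHAF1A are among these and had also fallen with asparagine alone, a comparison that shares the NC libraries. POLA1 (-0.20), RFC1 (-0.17), POLD1 (-0.13), ORC6 (-0.13) and RPA1 (-0.12) had not. With total counts in place of TMM factors 6 members fell and 2 rose in DHN-A against NC, and the members' median was -0.0032. Calls of this comparison lost when 1 library was left out were those of ORC6 without NC 1, NC 3, NC-A 2, DHN 1, DHN 2, DHN-A 2 or DHN-A 3 (log2 change -0.13 to -0.10, adjusted p = 0.0518 to 0.218), CHAF1A without NC 1, NC 3, DHN-A 1 or DHN-A 2 (log2 change -0.12 to -0.11, adjusted p = 0.0529 to 0.097), POLD1 without NC 1, NC 3, DHN-A 1 or DHN-A 3 (log2 change -0.14 to -0.086, adjusted p = 0.0508 to 0.262), RPA1 without NC 1, NC 2, DHN-A 1 or DHN-A 2 (log2 change -0.12 to -0.079, adjusted p = 0.0787 to 0.291), POLE2 without NC 1, NC 2 or DHN-A 1 (log2 change -0.22 to -0.15, adjusted p = 0.0552 to 0.204), PCNA without NC 3 or DHN-A 3 (log2 change -0.12 to -0.11, adjusted p = 0.0544 to 0.0725) and RFC1 without NC 2 (log2 change -0.12, adjusted p = 0.0581).

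Other genes of the pathway were taken from lists chosen for this tissue and process. In DHN against NC 12 of 30 other replication genes rose and 5 fell, where 19.7% of all genes rose and 19.0% fell. DTL, a substrate receptor of the ubiquitin ligase that destroys CDT1 on PCNA, was at 65.8, 68.6 and 63.2 CPM in NC and 92.03, 95.1 and 92.2 CPM in DHN (log2 change 0.50 ± 0.049 SE, adjusted p = 5.78e-12). TOP2A, the topoisomerase that also peaks in G2 and mitosis, fell from 658, 649.5 and 616 CPM to 446, 444 and 438 CPM (log2 change -0.53 ± 0.035 SE, adjusted p = 2.27e-17). POLE3 and CLSPN rose by 0.31 ± 0.049 (adjusted p = 1.33e-06) and 0.26 ± 0.037 (adjusted p = 1.3e-07). With asparagine in both groups 1 gene of that list fell (TOP2A, -0.13 ± 0.035 SE, adjusted p = 0.0287) and none rose, where 1.29% and 0.805% of all genes did.

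Of 32 tested other G1/S regulators 12 rose and 13 fell in DHN against NC, beside the same 19.7% and 19.0% of all genes. CDC25A, the phosphatase that activates CDK2, was at 41.7, 39.6 and 41.8 CPM in NC, 71.6, 78.7 and 77.7 CPM in DHN and 36.99, 38.1 and 39.02 CPM in DHN-A. It rose with 1,2-DHN (log2 change 0.89 ± 0.058 SE, adjusted p = 1.08e-17) and fell on addition of asparagine (-1.003 ± 0.057 SE, adjusted p = 1.29e-19). CDKN1A, the CDK inhibitor p21, rose together with it, from 267, 260.3 and 281 CPM in NC to 461, 457 and 496 CPM in DHN (log2 change 0.80 ± 0.040 SE, adjusted p = 1.35e-21). SLBP, which binds histone mRNA in S phase, rose by 0.51 ± 0.044 (adjusted p = 1.99e-13), and RBL2, the pocket protein of resting cells, fell (log2 change -0.51 ± 0.062 SE, adjusted p = 3.17e-09). CDKN1A was the 1 gene of this list that passed the test in DHN-A against NC-A (0.19 ± 0.040 SE, adjusted p = 0.00294). CDC25A, CDKN1A and SLBP had negative and RBL2 a positive interaction (-0.87, -0.61, -0.46 and 0.59), and all 4 passed the test. With asparagine alone 5 genes of the list rose and 11 fell, where 9.32% and 10.9% of all genes did, CDKN2C, an inhibitor of CDK4 and CDK6, most clearly (-0.52 ± 0.054 SE, adjusted p = 2.32e-10).

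Of 28 other genes of nucleotide supply 7 rose and 9 fell in DHN against NC, beside 19.7% and 19.0% of all genes. SAMHD1, which breaks down dNTPs, fell from 180.2, 178 and 166 CPM to 102, 93.8 and 91.8 CPM (log2 change -0.87 ± 0.044 SE, adjusted p = 1.93e-21) and was at 147, 146 and 146 CPM in DHN-A. PFAS, an enzyme of purine synthesis, and MTHFD1, of the cytosolic folate cycle, fell (-0.50 ± 0.046 SE, adjusted p = 2.12e-12, and -0.41 ± 0.038 SE, adjusted p = 2.04e-12). MTHFD2, of the mitochondrial folate cycle, rose both with 1,2-DHN (0.61 ± 0.044 SE, adjusted p = 5.6e-16) and with asparagine alone (0.65 ± 0.045 SE, adjusted p = 1.3e-15). PAICS, another purine enzyme, was the gene of the list that passed the test in DHN-A against NC-A (-0.19 ± 0.040 SE, adjusted p = 0.00354). On addition of asparagine to 1,2-DHN 12 of the 28 rose and 7 fell, where 20.9% and 20.8% of all genes did. Among them were SAMHD1 (0.61 ± 0.044 SE, adjusted p = 4.44e-16) and CTPS1, which makes CTP (-0.39 ± 0.041 SE, adjusted p = 4.98e-11).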

How the data were processed

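Libraries kept the RNA strand, per the labels' protocols. The authors deposited raw read counts per gene symbol with a gene length, and their processing notes name the hg38 genome and Bowtie. The sources used here do not give the counting tool, its strand setting or the annotation. One table covered 12 libraries. Genes passing edgeR's filterByExpr (17889 of 60641) were fitted in 1 quasi-likelihood model of all 12 libraries with TMM factors and robust dispersion (edgeR 4.0.16, limma 3.58.1, R 4.3.3), and adjusted p-values (Benjamini-Hochberg, 0.05) cover all tested genes. The square root of the common dispersion was 4.60%. CPM uses TMM-scaled library sizes. Total counts of 12381071 to 27526206 set the precision, and no member fell under 152 counts. The pipeline was tested on simulated counts. DESeq2 1.42.0, limma-voom, other scaling, no filter, leaving out each library, a replicate block and a fit of only the compared groups were alternatives.

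The members and lists were chosen with earlier results of these data known. Values per library are given for 20 members fixed by name and for the 3 largest rises and falls of a comparison. All called members are named in DHN against NC and DHN-A against DHN, and up to 4 called genes per pathway list and comparison, by smallest p. Coordinates are 1-based from GENCODE release 29 (GRCh38), where 43 of 43 members matched by symbol. Exons of another gene on the opposite strand cover over 10% of 6 members (MCM2, GINS3, GINS4, RFC5, TYMS and CCNE2), and on the same strand 3 (POLA2, PRIM1 and RRM2).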

Additional observations from a re-analysis of the deposited data

Results flagged for a closer look

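The response to 1,2-DHN differed between cells without and with asparagine at 20 members, by edgeR's test of the interaction (adjusted p under 0.05), and these are the results singled out for a closer look. Of all tested genes 25.7% passed the same test (12.5% lower, 13.2% higher). Values are the log2 change with asparagine minus the log2 change without. The loaders of the helicase had -0.84 (CDC6), -0.37 (ORC1), -0.36 (CDT1) and -0.28 (ORC6), and the ring subunit MCM4 -0.15. Origin firing genes had -0.52 (GINS3), -0.40 (MCM10) and 0.23 (CDC7). The polymerase genes had -0.43 (PRIM1), 0.38 (POLA2) and 0.37 (POLD1). PCNA had -0.18, RFC5 -0.27, RPA2 -0.24 and LIG1 0.28. The nucleotide supply genes RRM2 and TYMS had 0.14 and 0.19, the cyclins CCNE1 and CCNE2 -0.29 and -0.31, and CHAF1A -0.16.

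Of these 20, 9 passed the test under every alternative run. Leaving out 1 library ended 10 of the calls: CDC7 without NC 1, NC 2, NC-A 2, NC-A 3, DHN 1, DHN 3, DHN-A 2 or DHN-A 3 (log2 change 0.18 to 0.24, adjusted p = 0.0575 to 0.134), RFC5 without NC 2, NC 3, NC-A 1, NC-A 2, DHN 1, DHN 3, DHN-A 1 or DHN-A 2 (log2 change -0.29 to -0.22, adjusted p = 0.0536 to 0.142), MCM4 without NC 1, NC 3, NC-A 2, NC-A 3, DHN 2, DHN-A 1 or DHN-A 2 (log2 change -0.15 to -0.11, adjusted p = 0.0638 to 0.164), CHAF1A without NC 2, NC-A 2, NC-A 3, DHN 1, DHN 3, DHN-A 1 or DHN-A 2 (log2 change -0.16 to -0.12, adjusted p = 0.0542 to 0.123), RRM2 without NC 2, NC-A 1, DHN 2, DHN 3 or DHN-A 2 (log2 change 0.12 to 0.14, adjusted p = 0.0577 to 0.115), TYMS without NC 1, NC-A 1, DHN 2, DHN-A 1 or DHN-A 2 (log2 change 0.14 to 0.19, adjusted p = 0.0537 to 0.168), PRIM1 without NC-A 1, DHN 1, DHN 2 or DHN-A 1 (log2 change -0.39 to -0.38, adjusted p = 0.0506 to 0.0654), POLA2 without NC 3, DHN 1 or DHN-A 1 (log2 change 0.28 to 0.36, adjusted p = 0.0572 to 0.122), PCNA without NC-A 2 (log2 change -0.15, adjusted p = 0.0752) and CCNE2 without NC 1 (log2 change -0.25, adjusted p = 0.0514).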

How the results depend on the processing

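No called member reversed its direction under any alternative. Each call was checked with each library left out, and 1043 of these checks kept the call and 133 lost it. Checks of each call under the other alternatives kept it 606 times and lost it 60 times. Leaving out at least 1 of the libraries ended 7 of 27 calls in DHN against NC and 7 of 14 in NC-A against NC. It ended 5 of 24 in DHN-A against DHN, 7 of 13 in DHN-A against NC and 10 of 20 of the interaction. With total counts in place of TMM factors, members rising and falling were 21 and 5 in DHN against NC (main 18 and 9), 2 and 9 in NC-A against NC (1 and 13), 2 and 6 in DHN-A against NC (0 and 13), 3 members had a higher interaction (6), and 1 member rose in DHN-A against NC-A. The medians were then 0.12, -0.049, -0.0032, -0.079 and 0.036. Over all genes this scaling gave 4170 rises and 2834 falls in DHN against NC, 2140 and 1493 in NC-A against NC (1668 and 1944), and 2686 and 1295 in DHN-A against NC (1758 and 2011). Without the filter on low counts the medians were 0.061 in DHN against NC, -0.11 in NC-A against NC, -0.11 in DHN-A against DHN, 0.047 in DHN-A against NC-A and -0.0064 for the interaction, with 1 rise in DHN-A against NC-A and 7 lower interactions. In DHN-A against NC-A, DESeq2 and the fit of only the groups compared each gave 1 rise and 1 fall. The last has no interaction value, since it would hold the same groups. The cause was not tested.

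Leaving out each library in turn gave, in DHN against NC, 6126 to 7112 called genes, 14 to 18 rises and 7 to 9 falls of members and medians of 0.048 to 0.086. NC-A against NC gave 2773 to 3714, 1 to 1, 7 to 14 and -0.086 to -0.057, with 7 falls without NC-A 1. DHN-A against DHN gave 6575 to 7835, 4 to 4, 17 to 22 and -0.15 to -0.12. DHN-A against NC-A gave 143 to 426, 0 to 1, 0 to 1 and 0.012 to 0.021, with the fewest rises and falls of all genes without DHN-A 2 (51 and 92), NC-A 3 (61 and 109), DHN-A 1 (77 and 153) and NC-A 2 (83 and 143), against 144 and 231 with all libraries. DHN-A against NC gave 2782 to 4059, 0 to 0, 9 to 14 and -0.074 to -0.046. The interaction gave 4051 to 4503, 3 to 5 higher, 10 to 14 lower and -0.077 to -0.021, with 3 higher without DHN-A 2. Libraries that share a replicate number did not deviate together (r -0.18 to 0.23, over 0.1 in 1 of 18 pairs). With a replicate block 17 members rose and 9 fell in DHN against NC, 1 and 13 in NC-A against NC, 4 and 21 in DHN-A against DHN, 0 and 0 in DHN-A against NC-A, 0 and 11 in DHN-A against NC, and the interaction was 6 higher and 14 lower.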

Other observations

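Of 15 genes of the replication checkpoint and of repair at forks, 5 rose and 1 fell in DHN against NC, where 19.7% of all genes rose and 19.0% fell, so the share called was near that of all genes (38.7%). In DHN-A against DHN 3 rose and 8 fell, where 20.9% and 20.8% of all genes did. HUS1 and RAD1 encode subunits of the 9-1-1 clamp, a PCNA-like ring that is loaded at damaged DNA. HUS1 was at 17.7, 20.03 and 16.3 CPM in NC, 31.3, 28.5 and 30.8 CPM in DHN, 19.96, 16.4 and 17.8 CPM in NC-A and 16.3, 16.3 and 17.3 CPM in DHN-A, so every DHN library lay above all others. It rose with 1,2-DHN (log2 change 0.75 ± 0.083 SE, adjusted p = 3.35e-10) and fell on addition of asparagine (-0.86 ± 0.082 SE, adjusted p = 4.15e-12). RAD1 rose by 0.31 ± 0.051 (adjusted p = 2.49e-06). RAD9A, the remaining subunit of the clamp, fell with asparagine alone (-0.35 ± 0.10 SE, adjusted p = 0.0113). ATR, the kinase of the checkpoint, rose with asparagine alone (0.33 ± 0.062 SE, adjusted p = 9.22e-05) and when asparagine was added to 1,2-DHN (0.40 ± 0.061 SE, adjusted p = 5.13e-07). In DHN-A against NC-A edgeR, DESeq2 and limma-voom each called 0 of the 15, and 2 had an unadjusted p under 0.05 by edgeR.

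Of 8 other chromatin assembly genes 3 rose and 1 fell with 1,2-DHN, beside 19.7% and 19.0% of all genes. NASP and ASF1A, which are histone chaperones, rose with 1,2-DHN (0.28 ± 0.039 SE, adjusted p = 7.9e-08, and 0.28 ± 0.087 SE, adjusted p = 0.00858), as did RBBP4, a subunit of CAF-1 (0.13 ± 0.044 SE, adjusted p = 0.0186), and SUPT16H, of the FACT complex, fell (-0.10 ± 0.038 SE, adjusted p = 0.0244). NASP was at 529, 516 and 493 CPM in NC, 657, 634 and 582 CPM in DHN and 524, 515 and 519 CPM in DHN-A. NASP, ASF1A and RBBP4 fell when asparagine was added to 1,2-DHN (-0.27, -0.31 and -0.23 on the log2 scale). GMNN, whose product geminin blocks CDT1 after origins have fired, was called higher in DHN against NC. It fell on addition of asparagine to 1,2-DHN (-0.39 ± 0.049 SE, adjusted p = 6.29e-09). Its means were 78.0 CPM in NC, 94.0 in DHN, 72.4 in NC-A and 71.6 in DHN-A.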
